A study of Mus musculus with 4 samples.

Results

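The PYHIN family was followed through 7 of its mouse genes, Aim2, Ifi202b, Ifi203, Ifi204, Ifi207, Ifi209 and Ifi213, in 2 fractions of the common lymphoid progenitor (CLP). Every probe set (a group of short probes against 1 transcript) that the platform annotation assigned to just 1 of these genes was taken, which gave 9 of the 34945 probe sets with 1 gene and 7 of 18193 genes. The genes were chosen by their family and were selected on the contrast between the 2 fractions in these same data. Their differences between the fractions are therefore given as a description, without a test.

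PYHIN proteins pair a pyrin domain, through which they bind other proteins, with a HIN domain that binds double-stranded DNA. Aim2 is the member that senses DNA in the cytosol and builds an inflammasome with the adaptor ASC and caspase-1, whereas Ifi204 has been linked to STING and interferon induction. Several members are themselves induced by interferon, and in the mouse the genes lie side by side in 1 cluster on chromosome 1.

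The CLP is the bone marrow progenitor of B, T and natural killer cells. Both groups came from bone marrow of C57Bl6 mice aged 8 to 12 weeks, and each of the 4 arrays (Affymetrix MOE430_2) was hybridised with RNA amplified from 2000 sorted cells. CLP_RAGhigh, the fraction sorted for high GFP, and CLP_RAGlow, the fraction sorted for low GFP, had 2 arrays each. The labels do not describe the GFP reporter, name no treatment, and call the replicates biological but give no animal or sort for any of them, so a p-value here covers the spread of these samples alone.

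Values are log2 of the deposited intensity unless called an intensity, and a positive difference means a higher value in CLP_RAGhigh, with the standard error (SE) taken from limma's fit. A value under 3.88, the median log2 of all probe sets, is called dim. The size of a difference that includes such low values depends on the background, so it was also computed after adding 32 to every intensity. Rag1, which encodes the catalytic subunit of the V(D)J recombinase, was at 10.92 and 10.62 on the CLP_RAGhigh arrays and at 7.72 and 8.53 on the CLP_RAGlow arrays. Rag2, its partner, was at 9.47 and 9.15 against 8.12 and 8.72. Both followed the group names. Of 10 CLP markers, 9 were measured, and 0 passed in limma at an adjusted p under 0.05. Ly6d, a surface marker of B-lineage specification, was at 8.86 and 8.75 in CLP_RAGhigh against 5.88 and 6.72 in CLP_RAGlow, and Cd34, a progenitor surface marker, was at 8.72 and 9.48 against 10.33 and 10.11. Il7r, the interleukin-7 receptor, had group means of 11.23 and 10.42 and was separated upward, with every CLP_RAGhigh value above every CLP_RAGlow value. Flt3, the receptor for FLT3 ligand, overlapped with means of 10.91 and 10.77, as did Kit with means of 7.70 and 7.99. Since these are bulk samples, fewer cells of a type and less RNA per cell cannot be told apart.

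Ifi213, a PYHIN gene of which little is known beyond its domains, had the largest difference of the 7 members. The brighter of its 2 probe sets had intensities of 313 and 209 on the CLP_RAGhigh arrays and 21.4 and 29.2 on the CLP_RAGlow arrays. Both CLP_RAGhigh arrays were high and the groups did not overlap. The gap between the nearest arrays of the groups was 2.84 on the log2 scale, while arrays of 1 group were at most 0.59 apart. The group means were 8.00 ± 0.41 and 4.64 ± 0.32 (SD, n = 2 each). The log2 difference was 3.36 ± 0.41 (SE), which is 10.24-fold. This difference ranked 9 among 18193 genes ordered from the highest. With the offset of 32 it was 2.34, or 5.05-fold.

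The dimmer Ifi213 probe set did not show this pattern. Its intensities were 9.78 and 18.5 in CLP_RAGhigh and 18.4 and 14.1 in CLP_RAGlow, close to the dim level on every array. The groups overlapped, and the difference was -0.26 ± 0.40 (SE, n = 2 each). Averaging both probe sets lowered the Ifi213 difference to 1.55. Which part of the transcript each probe set covers is not given in the sources used here.

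Ifi209, the mouse gene also called Pyhin1, was measured by 2 probe sets that both differed in the same direction. The brighter one had intensities of 1349 and 1248 in CLP_RAGhigh and 276 and 451 in CLP_RAGlow. Its group means were 10.34 ± 0.08 and 8.46 ± 0.50 (SD, n = 2 each). They differed by 1.88 ± 0.31 (SE), which is 3.68-fold. None of these values was dim, and the offset of 32 left the difference at 1.79. The dimmer one had intensities of 263 and 118 against 25.7 and 28.1, a difference of 2.72 ± 0.49 (SE). With the offset the 2 probe sets came to 1.79 and 1.84, so their gap narrowed. Neither probe set had overlapping groups, and the gap between the groups (1.47 and 2.08) exceeded the largest gap within a group (0.71 and 1.15) for both.

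Aim2, the inflammasome sensor, had intensities of 58.4 and 42.8 in CLP_RAGhigh and 13.2 and 28.7 in CLP_RAGlow. The groups did not overlap, but CLP_RAGlow replicate 2 came close to the CLP_RAGhigh arrays. The gap between the groups was 0.58, smaller than the 1.12 that separated the 2 CLP_RAGlow arrays. The means were 5.64 ± 0.32 and 4.29 ± 0.79 (SD, n = 2 each), with a difference of 1.36 ± 0.49 (SE), which the offset reduced to 0.65. Without CLP_RAGlow replicate 1, the array with the low value, the Aim2 difference was 0.80.

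The remaining 4 members had differences of 0.55 or less. Ifi207 had intensities of 6.42 and 4.25 in CLP_RAGhigh and 3.66 and 3.48 in CLP_RAGlow, dim on all 4 arrays. Its groups did not overlap, yet the difference of 0.55 ± 0.22 (SE, n = 2 each) became 0.07 with the offset, and it was 0.25 without CLP_RAGhigh replicate 1 and 0.85 without CLP_RAGhigh replicate 2. Ifi204, which encodes p204, had intensities between 3.73 and 6.03 on the 4 arrays, and a difference of -0.09 ± 0.26 (SE). Ifi202b, which encodes p202, a HIN protein that lacks the pyrin domain and can hold Aim2 in check, ranged from 7.04 to 8.3 with a difference of 0.10 ± 0.19 (SE). Both were dim on every array, so these probe sets do not separate low expression from background. Ifi203 ranged from 15.4 to 26.8, with overlapping groups and a difference of 0.03 ± 0.39 (SE).

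**Figure D1:**
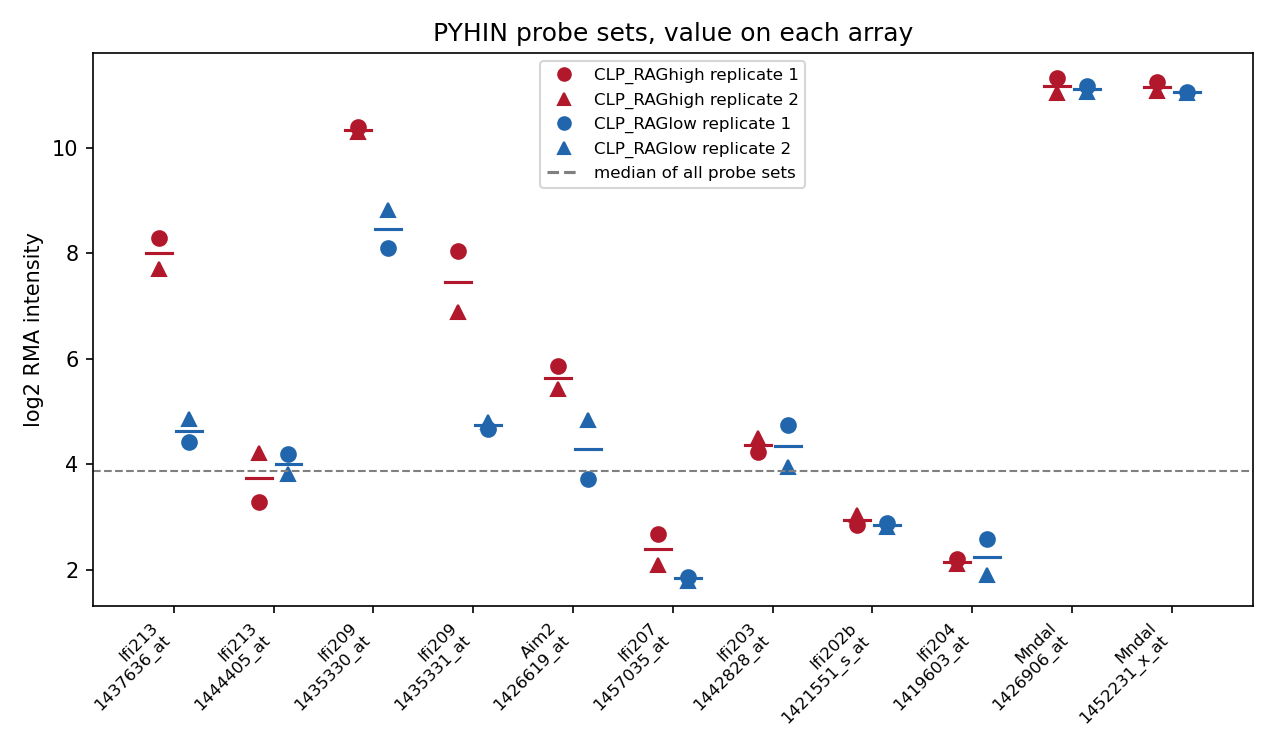
Log2 RMA intensity (vertical axis) of the 9 member probe sets and of 2 probe sets of Mndal on each of the 4 arrays; short bars are group means and the dashed line is the median of all probe sets, 3.88. The red CLP_RAGhigh points lie clear of the blue CLP_RAGlow points for the brighter probe set of Ifi213 and both probe sets of Ifi209; heights of different probe sets are not comparable with each other.

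Of the 7 members, 4 (Ifi213, Ifi209, Aim2 and Ifi207) were separated upward, 0 were separated downward, and 3 overlapped. Over all genes, 15.4% were separated upward and 15.8% downward. Counted as probe sets, 5 of the 9 were separated upward, against 15.5% of all probe sets. Because the members were selected on this contrast, nothing is read from these counts. The median difference over the 7 members was 0.55, beside 0.003 over all genes. That median is the value of the dim gene Ifi207. It was therefore 0.07 with the offset, 1.62 over the 4 members that were not dim on average, and 0.25 and 0.85 when CLP_RAGhigh replicate 1 or 2 was left out.

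**Figure D2:**
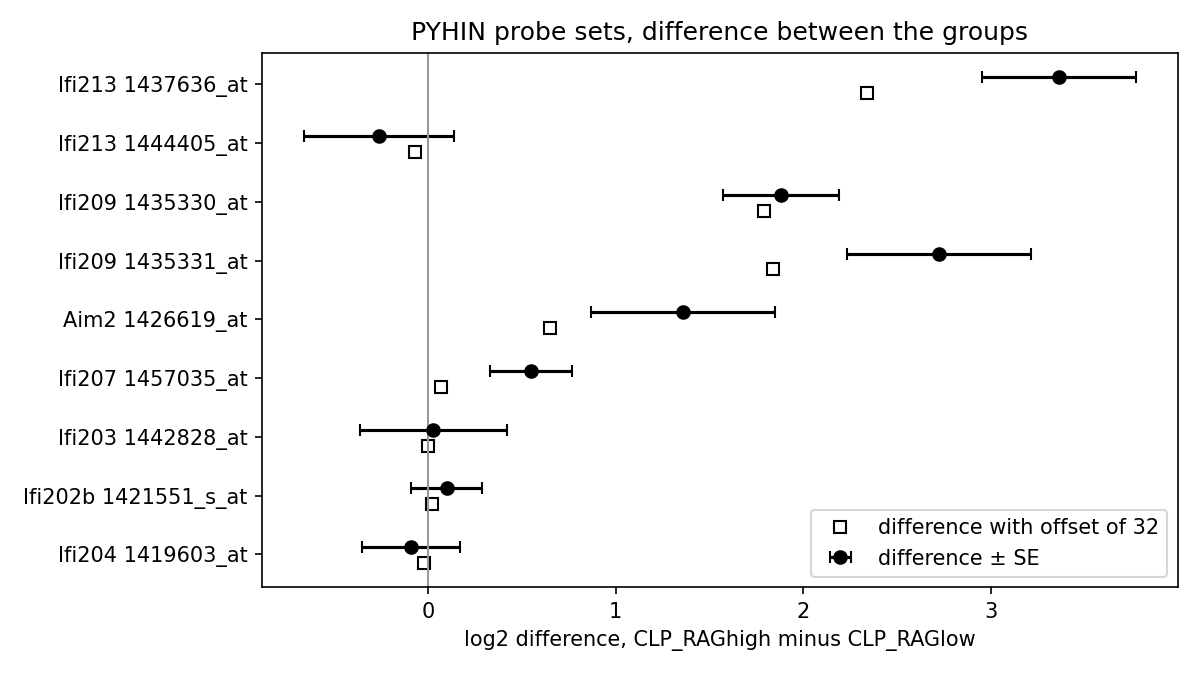
Log2 difference, CLP_RAGhigh minus CLP_RAGlow, for each member probe set, with the SE of the fit (filled circles, n = 2 arrays per group) and after an offset of 32 on the intensity (open squares). The probe sets of Ifi209 give 1.79 and 1.84 with the offset, while the differences of Aim2 and Ifi207 shrink to 0.65 and 0.07.

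The 3 members with the largest differences were also followed array by array. The mean deviation of Aim2, Ifi209 and Ifi213 from each gene's mean was 1.29 and 0.91 on the CLP_RAGhigh arrays and -1.48 and -0.72 on the CLP_RAGlow arrays. For each of the 3 genes CLP_RAGhigh replicate 1 was the highest array and CLP_RAGlow replicate 1 the lowest. Leaving out 1 array at a time gave differences from 3.06 to 3.65 for Ifi213, from 1.53 to 2.23 for Ifi209 and from 0.80 to 1.92 for Aim2.

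Along chromosome 1 the 3 members with the largest differences lay toward 1 end of the cluster. The reference gene table orders the family as Aim2, Ifi206, Ifi214, Ifi213, Ifi209, Ifi208, Ifi207, Ifi204, the pseudogene Ifi203-ps, Mndal, Ifi211, Ifi203, Ifi202b and Ifi205. Of these 14 genes, 8 had a probe set of their own, 3 were covered only by probe sets shared with other genes, and 3 (Ifi206, Ifi214 and Ifi208) were not analysed here. Ifi213 and Ifi209 are direct neighbours in this order, with Aim2 as the end gene. No measured gene outside the family started between Aim2 and Ifi205. Of the 10 nearest measured genes outside the cluster, 5 on each side, 0 passed in limma at an adjusted p under 0.05 and 0 at an unadjusted p under 0.05. On average 6 of the 10 were dim, and these do not separate low expression from background. The median difference was 0.05 without the dim genes and -0.03 over all 10. The 3 with the smallest p were Ackr1, an atypical chemokine receptor, at 0.32 ± 0.33 (SE), Fh1, the fumarate hydratase, at -0.17 ± 0.19, and Fcer1a, a chain of the IgE receptor, at 0.15 ± 0.20, with limma adjusted p = 1 for all 3.

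**Figure D3:**
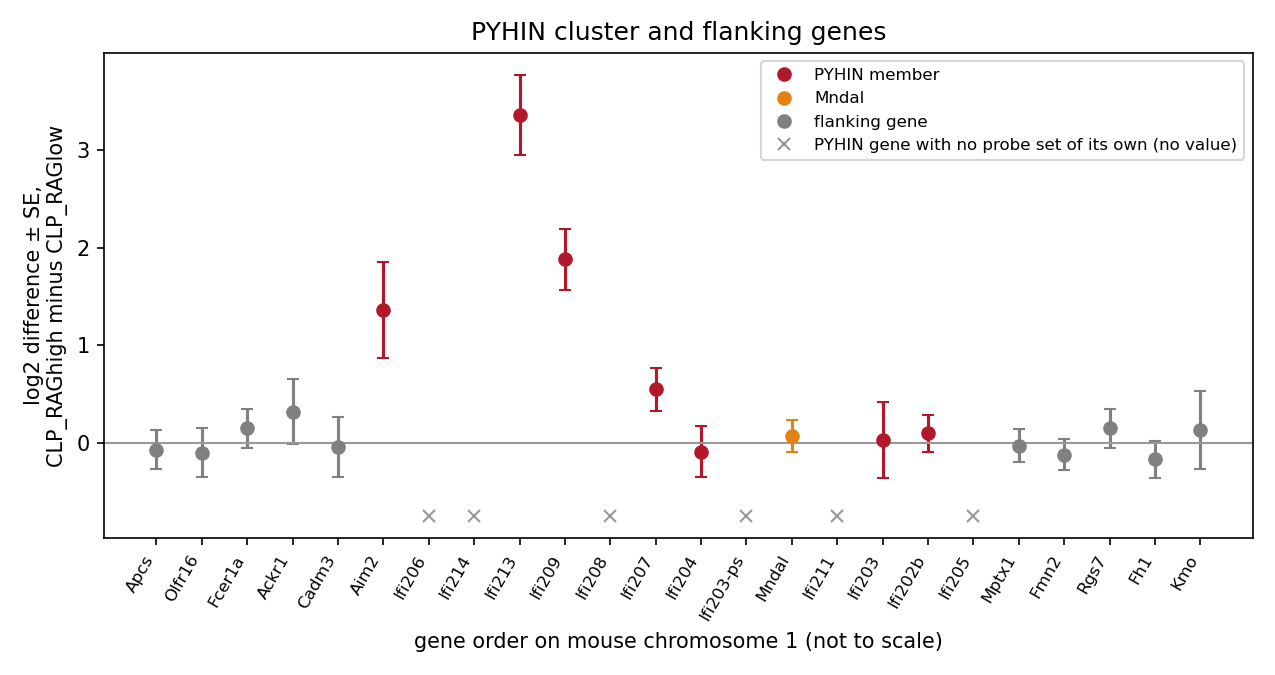
Log2 difference ± SE (n = 2 arrays per group) in gene order on mouse chromosome 1, not to scale, for the PYHIN members (red), Mndal (orange) and the 5 nearest measured genes on either side (grey); crosses mark PYHIN genes without a probe set of their own and carry no value. Ifi213 at 3.36, Ifi209 at 1.88 and Aim2 at 1.36 stand on the left of the cluster, and the flanking genes lie between -0.17 and 0.32. Of the 10 flanking genes, 6 were dim on average.

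Mndal, a PYHIN gene outside the 7 members and a close relative of Ifi203, was bright and nearly level across the arrays. Its brightest probe set had intensities of 2560 and 2112 in CLP_RAGhigh and 2318 and 2131 in CLP_RAGlow, and its difference was 0.07 ± 0.16 (SE, n = 2 each; limma adjusted p = 1 over all genes). A further 6 probe sets were shared between PYHIN genes or their copies and lie outside the rule. The brightest of those covering Ifi203 together with Ifi203-ps had intensities of 1266 and 1487 against 885 and 1309, a difference of 0.35 with overlapping groups. Others covering Ifi203 differed by 0.50 with overlapping groups and by 0.45, separated upward at dim values. Signal from Ifi203 cannot be told from that of its copies in these probe sets. The Ifi203 value given above comes from a probe set much dimmer than the brightest shared one. The probe set shared by Mndal, Ifi211, Ifi205 and Ifi204 had values of 8.52, 7.90, 7.84 and 8.15 on the 4 arrays (CLP_RAGhigh first), a difference of 0.21 with overlapping groups.

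The promoters were read for the interferon-stimulated response element, because Ifi213 and Ifi209 had large differences in 1 direction. Those of Mndal and of the Ifi203 probe set that is not shared were near 0. RefSeq promoters (build GRCm38.p6, 250 bases before to 50 bases after the annotated start) were at hand for 6 of the 7 members (all but Ifi204) and for Mndal. The core letters GAAANNGAA, searched on both strands, occurred in 1 entry each of Ifi213, Ifi207 and Ifi203 and in both entries of Mndal, and in 8.56% of all 32851 promoters. It was not found in the other Ifi203 entry or in the windows of Ifi209, Aim2 and Ifi202b. In 1 entry each of 4 genes, Ifi213, Ifi207, Ifi203 and Mndal, the match was the same run, GAAATCGAA, which 30 promoters (0.0913%) hold, while the match in the other Mndal entry was on the opposite strand and had 2 mismatches to this run. In Ifi209 the nearest run differed by 1 substitution, G1T (counted from 1 at the 5′ end of the run), and 3.95% of all promoters hold the run with at most 1 mismatch. The closest run in Aim2 had 3 mismatches. These runs are shown with 30 bases on either side, 5′ to 3′, with the run in capitals. They set the genes with large differences (Ifi213, Ifi209) beside those with differences near 0 (Mndal, and Ifi203 by its own probe set).
Ifi213, chr1:173599307-173599375, minus strand: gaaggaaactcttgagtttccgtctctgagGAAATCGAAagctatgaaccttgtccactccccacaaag
Ifi209, chr1:173630750-173630818, plus strand: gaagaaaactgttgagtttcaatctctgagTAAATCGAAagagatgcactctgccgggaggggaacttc
Ifi207, chr1:173741812-173741880, minus strand: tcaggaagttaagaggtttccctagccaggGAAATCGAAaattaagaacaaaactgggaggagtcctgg
Mndal, chr1:173880185-173880253, minus strand: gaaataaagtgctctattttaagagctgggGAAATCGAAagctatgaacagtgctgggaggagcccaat
Ifi203, chr1:173942489-173942557, minus strand: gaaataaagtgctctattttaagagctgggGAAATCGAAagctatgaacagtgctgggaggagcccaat

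The run began 73 bases before the annotated start in Ifi213, 79 in Ifi209, 41 in Ifi207, 36 in Mndal and 35 in Ifi203. Every window was centred on the run or, in Ifi209, on its nearest match, so those bases count as shared by construction, apart from the 1 substitution. The windows of Mndal and Ifi203 were identical over all 69 bases, while those of Ifi213 and Ifi209 shared 45 of 69 bases (65.2%). Ifi209 shared nearly as many, 44 (63.8%), with Mndal and with Ifi203, and Ifi213 shared 39 (56.5%) with each of these. The pair of Ifi213 and Ifi207 shared 33 (47.8%). Aligned over their 300 bases, Ifi203 and Mndal shared 94.0% and Ifi209 and Ifi213 60.7%, the highest values of the 34 pairs of promoter entries compared (a gene can have more than 1 entry), whose median was 52.3%. The GAS core TTCNNNGAA, which is bound by STAT dimers, was found in Ifi202b and in none of the other 5 members searched, and in 8.30% of all promoters. It overlaps the interferon-element core only in the letters GAA. TATAAA was found in Ifi213, Ifi209 and Ifi202b, and in 13.6% of all promoters. It lay at -193 from the annotated start in Ifi213 and at -212, on the opposite strand, in Ifi209. In Ifi202b it lay after the start, at 42 and 44. A match to these letters describes the window and shows no binding.

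Genes that act with PYHIN proteins were tested over all 18193 genes, where limma called 0 genes (0%) at an adjusted p under 0.05. At an unadjusted p under 0.05, 428 genes were higher and 535 lower in CLP_RAGhigh. For inflammasome and pyroptosis genes, 15 of 20 were measured and 0 passed in either direction, with 1 lower at an unadjusted p under 0.05. Their median difference was -0.38, with 5 means higher and 10 lower. Of the 15 genes, 5 were separated downward and 1 upward, beside 15.8% and 15.4% of all genes. The median was -0.12 with the offset of 32, -0.22 without CLP_RAGhigh replicate 2 and -0.20 without CLP_RAGlow replicate 1. Pycard, which encodes ASC, the adaptor that joins Aim2 to caspase-1, averaged 9.02 ± 0.03 (SD) on the 2 CLP_RAGlow arrays but 8.18 ± 0.18 on the 2 CLP_RAGhigh arrays. Its groups did not overlap, in the direction opposite to Aim2. The difference of -0.84 ± 0.29 (SE, n = 2 each) had limma adjusted p = 0.886, and was -0.66 with probe sets averaged. Casp1, which encodes caspase-1, was the 1 gene separated upward, at 8.14 and 7.55 against 7.46 and 7.47, a difference of 0.38 ± 0.37. Ninj1, which ruptures the membrane at the end of pyroptosis, differed by -0.79 ± 0.34 (adjusted p = 0.939 in limma; -0.38 with its probe sets averaged). Naip5, a receptor for flagellin, differed by -1.58 ± 0.89 with overlapping groups (adjusted p = 0.979 in limma).

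Of 23 genes of the cGAS-STING route and other nucleic acid sensing, 20 were measured and 0 passed, with 1 lower at an unadjusted limma p under 0.05. Separation was upward for 5 of the 20 and downward for 3, beside 15.4% and 15.8% of all genes. Their median difference was 0.13, and -0.05 with probe sets averaged. It was 0.00 without CLP_RAGhigh replicate 1, 0.31 without CLP_RAGhigh replicate 2, 0.05 without CLP_RAGlow replicate 1. Leaving out probe sets ending in _x_at, _s_at or _a_at, where the gene had a probe set without such an ending, gave 0.06. Cgas, the enzyme that makes cyclic GMP-AMP on binding DNA, had values of 8.70 and 8.52 in CLP_RAGhigh against 9.12 and 9.54 in CLP_RAGlow, a difference of -0.72 ± 0.29 (adjusted p = 0.928 in limma; -0.24 with probe sets averaged). Rnaseh2b, a subunit of the nuclease that removes RNA from DNA, differed by -0.74 ± 0.39. Irf3, the transcription factor that STING activates, differed by 0.51 ± 0.29, but by -0.29 when its probe sets with these endings were left out. Neither passed (adjusted p = 0.979 in limma for both).

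Interferon-stimulated genes, 24 measured of 27, split evenly, with 12 means higher and 12 lower in CLP_RAGhigh and a median difference of -0.06, which was -0.18 without CLP_RAGhigh replicate 1 and 0.06 without CLP_RAGhigh replicate 2. In limma 0 passed, and at an unadjusted p under 0.05 there was 1 gene in each direction. Separation was upward for 4 of the 24 and downward for 6, beside 15.4% and 15.8% of all genes. Rsad2, the antiviral protein viperin, had values of 7.55 and 6.73 in CLP_RAGhigh and 8.86 and 8.51 in CLP_RAGlow, a difference of -1.55 ± 0.41 (adjusted p = 0.745; -0.58 with probe sets averaged). Usp18, which removes ISG15 from proteins, differed by 0.91 ± 0.39 (adjusted p = 0.939) and Irgm1, an interferon-induced GTPase, by 0.83 ± 0.33 (adjusted p = 0.928). The summed intensity of the list was 10460 and 10054 on the CLP_RAGhigh arrays and 10073 and 10477 on the CLP_RAGlow arrays.

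All 8 interferon receptor and kinase genes of the list were measured, 7 with a higher mean in CLP_RAGhigh and 1 lower, and 0 passed in limma, adjusted or at an unadjusted p under 0.05. The median difference was 0.44, and 5 of the 8 were separated upward, beside 15.4% of all genes. The median was 0.28 without CLP_RAGlow replicate 2 and 0.34 with probe sets averaged. Ifngr2, a chain of the interferon-gamma receptor, had values of 6.90 and 6.78 against 6.17 and 6.08, a difference of 0.72 ± 0.35 (adjusted p = 0.971 in limma). The kinase genes Jak2 and Jak1 differed by 0.59 ± 0.38 and 0.50 ± 0.33 (adjusted p = 0.981 and 0.983 in limma), and Jak2 by -0.47 with its probe sets averaged.

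**Figure D4:**
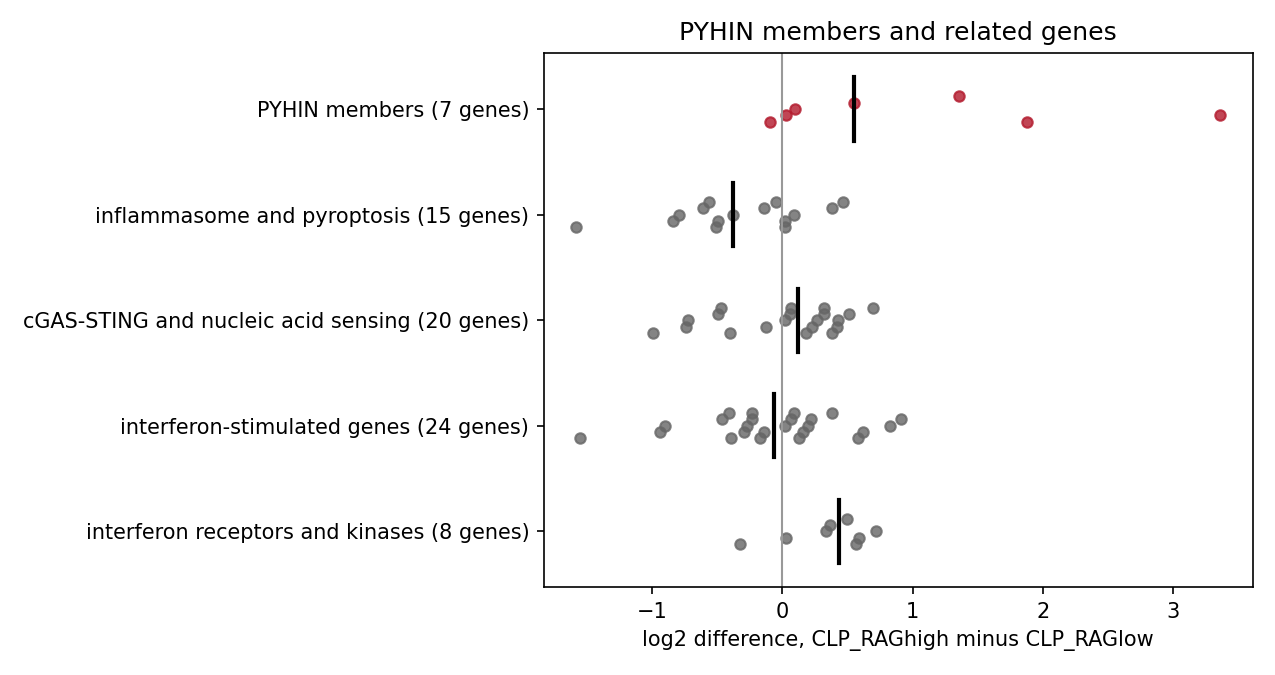
Log2 difference, CLP_RAGhigh minus CLP_RAGlow, of each gene (1 point per gene, spread vertically for legibility) in the PYHIN members (red) and 4 lists of related genes (grey); thick bars are medians. The medians are 0.55 for the members, -0.38, 0.13 and -0.06 for the first 3 lists and 0.44 for interferon receptors and kinases.

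Genes whose pattern over the 4 arrays was most like that of Ifi209 were sought among 11572 non-member genes above the dim level. Ifi209 was taken because its probe set gave the highest signal among the member probe sets, which does not rank the genes by expression. The measure was the root mean square distance between log2 values centred on each gene's mean. Zfp182, a zinc finger gene, was nearest at 0.058, with values of 5.81, 5.64, 3.44 and 4.07 (CLP_RAGhigh first). Stx3, a syntaxin of membrane fusion, followed at 0.070 with values of 8.15, 7.89, 5.82 and 6.41. Mroh2a, 2900026A02Rik and Pqlc3 lay at 0.115, 0.169 and 0.202. With 4 arrays these distances describe the arrays and carry no test.

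PYHIN genes are also expressed in myeloid cells, so markers of other cell types were read on the same arrays. Of the monocyte and macrophage markers, 8 of 10 were measured, and their summed intensity was 449 and 583 on the CLP_RAGhigh arrays and 1100 and 1039 on the CLP_RAGlow arrays. Csf1r, the receptor for macrophage colony-stimulating factor, differed most among them, with values of 6.79 and 8.26 against 9.31 and 9.54. Without it the sums were 338 and 276 against 467 and 292 and overlapped. The list's median difference was -0.06, with 3 means higher and 5 lower. Lyz2, the lysozyme gene, overlapped between the groups, and Itgam, Adgre1 and Cx3cr1 were dim. Granulocyte markers (10 of 10) summed to 4040 and 4127 against 5424 and 2482, with S100a8 at 3.81 on CLP_RAGlow replicate 2 and between 9.60 and 10.15 on the others. Csf3r differed by -0.83, separated downward, and Elane by 0.41, separated upward. Plasmacytoid dendritic cell markers (10 of 10) summed to 3685 and 4851 against 4967 and 6261, lower on both CLP_RAGhigh arrays. Their median difference was -0.47, with 3 means higher and 7 lower, and 2 were separated upward and 4 downward. Pacsin1 differed by -1.18 at dim values and Irf8 by -0.65. Ly6d, at 2.51, is on this list and on the CLP list. Summed intensities of natural killer markers (9 of 10; 953 and 918 against 704 and 838) and erythroid markers (8 of 10; 412 and 192 against 186 and 132) were higher on both CLP_RAGhigh arrays, the direction of Ifi213, Ifi209 and Aim2. The nearest erythroid sums, 192 and 186, were close. Nkg7, the brightest natural killer marker, was at 9.38 and 9.46 against 9.12 and 9.33, and 6 of the 9 were dim. Klrd1, which encodes the natural killer receptor chain CD94, was at 7.76 and 7.23 against 6.43 and 7.10, and Klf1, an erythroid transcription factor, at 6.94 and 6.05 against 5.24 and 3.69. Only Klf1 and Pf4 of the erythroid markers were separated upward. A sum without Klf1 was not computed, so it is not known whether the erythroid direction holds without that gene. Pf4, a platelet chemokine, was separated upward by 0.48 at dim values, and Gata3 by 0.25, also dim. Prf1, the perforin gene, and Car1, a carbonic anhydrase, had higher means in CLP_RAGhigh (by 0.59 and 1.28) with overlapping groups. Car1 was at 7.15 on CLP_RAGhigh replicate 1 and between 3.67 and 4.30 on the others. Ncr1, Gzma, Eomes and Hba-a1 were dim. T-cell markers (8 of 10) summed to 134 and 184 against 202 and 206, lower on both CLP_RAGhigh arrays. Of these markers, 5 had a higher mean in CLP_RAGhigh and 3 a lower one. Cd28, at 2.06 and 4.78 against 6.36 and 6.25, was the only 1 separated downward. Separation was upward for 3, Cd5 (by 1.01), Cd8a (by 0.26) and Bcl11b (by 0.32, dim). A sum without Cd28 was not computed, so it is not known whether the T-cell direction holds without that gene. Mature B-cell markers (9 of 10) summed to 858 and 1075 against 967 and 844, with 2 separated in each direction. Cd22 and Pax5 were separated upward, by 0.68 and 1.01, with dim CLP_RAGlow values. Ms4a1 was separated downward, with a difference of -0.39 at dim values. The part of these cells in the PYHIN differences was not tested.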

How the data were processed

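The authors' deposited intensity values, 1 per probe set and array, were made with RMA, per the labels' design text. The software, its version and a genome build are not given in the sources consulted. They ran from 2.35 to 19893, a linear scale, so log2 was taken. The median intensity per array was 14.6 to 14.9. The ratio of 3′ to 5′ control probe sets for Actb was 16.2 and 9.62 in CLP_RAGhigh and 13.5 and 24.5 in CLP_RAGlow. For Gapdh it was 15.7 and 10.6 against 14 and 20. Signal was thus stronger at the 3′ end on every array, most of all on CLP_RAGlow replicate 2. Its effect on probe sets of the same gene was not tested. With 2 arrays per group, their number limits the precision.

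Of 45101 rows, 64 were controls. Of the others 34945 had 1 gene in the platform annotation, 932 several and 9160 none. Each gene was represented by its probe set with the highest mean. Groups were compared with limma 3.58.1 in R 4.3.3 (eBayes with trend, group as the only term), two-sided, with Benjamini-Hochberg adjustment over 18193 genes and a threshold of 0.05. The limma step was also run on simulated data with independent normal noise. Shifts were placed only in genes above the dim level, so shifts in dim genes were not covered. Promoters were aligned with Biopython 1.88, and figures drawn with matplotlib 3.10.9.

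The members, lists and named genes (per list the 3 with the smallest p, and the 5 nearest to Ifi209) were chosen with earlier results of these data known. The single genes Flt3, Il7r, Kit, Nkg7, Casp1, Cd8a and the dim markers were picked after values were seen. The run GAAATCGAA and the Ifi209 window were picked after values or sequences were seen. So was the monocyte and macrophage sum without Csf1r. No protein sequences were used here.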

Additional observations from a re-analysis of the deposited data

How the results depend on the processing

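In the alternatives that gave 1 value per gene, Ifi209 differed by 1.53 to 2.30 and Ifi213 by 1.55 to 3.65. Leaving out 1 array could not reverse their sign, because their groups did not overlap. With every probe set taken alone, the dimmer Ifi213 probe set was at -0.26. The count of genes past the adjusted threshold was 0 in each direction, but 2 higher with probe sets averaged (Pou2af1 and Gpat3), 1 higher without dim genes (Pou2af1), 2 higher (Pou2af1 and Gpat3) and 1 lower (Matn2) with quantile normalization repeated, and 5 higher (Pou2af1, Gpat3, Map9, Gimap4 and Vpreb1) and 2 lower (Matn2 and Rhobtb3) with the replicate number as a block. These names were chosen after their values were seen, and none is a PYHIN gene. The labels do not say that the numbers pair the samples, and deviations of same-numbered samples correlated at -0.025 over genes. The median over the 7 members, 0.55, was 0.07 with the offset of 32, 1.62 without dim genes, and 0.25 to 0.85 with 1 array left out. The median of the cGAS-STING list turned to -0.05 with probe sets averaged, and that of the interferon-stimulated genes ran from -0.18 to 0.06 with 1 array left out, turning positive without CLP_RAGhigh replicate 2. The cause of these changes was not tested. Taking the brightest shared probe set for Ifi203, chosen after seeing the data, gave it a difference of 0.35. Signal near background limits what Ifi202b, Ifi204 and Ifi207 can show.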
